A study of Mus musculus with 14 samples.

Results

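The genes described here are 8 that are reported in spinal muscular atrophy (SMA) either as modifiers of the disease or as genes whose RNA depends on the survival motor neuron protein, SMN. They are Tmem41b, Uba1, Chodl and Agrn on the SMN-dependent side, and Pls3, Coro1c, Ncald and Chp1 among the modifiers. They were chosen by name from the disease literature, with earlier results of these data known, and matched on the gene symbol. All 8 were found among the 56953 genes of the BaCl2 table and the 14330 genes of the glycerol table. RNA was sequenced from fibro-adipogenic progenitors (FAPs), the stromal cells of muscle that support repair and can turn into fat or scar-forming cells. The cells were isolated by magnetic-activated cell sorting (MACS) from mouse TA muscle, a muscle of the lower leg, at day 3 after injury, and RNA was taken from them fresh. After BaCl2, a salt that kills muscle fibres, there were 3 SMA and 3 wild-type (WT) libraries. After glycerol, an injury that leaves more fat behind, there were 4 SMA and 4 WT libraries. The sources used here give neither the SMA allele nor the strain, age or sort antibodies, and nothing states that each library is a mouse of its own, so the p-values may measure technical spread only.

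SMN assembles the small ribonucleoprotein particles of the splicing machinery, and too little of it is most harmful to motor neurons. Some genes carry introns or exons that are spliced poorly when SMN is short, and their loss is one studied route to the disease. Modifier genes act beside SMN, and those known so far point to actin filaments, calcium sensing and endocytosis at the nerve terminal. Most of this knowledge comes from neurons and the neuromuscular junction, and the cells measured here are neither.

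The BaCl2 libraries held 97.7 to 136 M counts, while the depth behind the already normalized glycerol values is unknown. Smn1, the mouse gene for SMN, stood at 68.8% of the WT mean in SMA libraries after BaCl2 and at 68.7% after glycerol. Its log2 fold change was -0.54 in both (edgeR adjusted p = 0.0131 after BaCl2 and limma adjusted p = 0.0364 after glycerol). Every SMA library was below every WT library after both injuries. With 1 library left out Smn1 missed the threshold in 3 of 6 BaCl2 fits (those lacking SMA 2, WT 2 or WT 3). It also missed in every glycerol fit but the one without SMA library 3. In these fits its log2 fold change spanned -0.59 to -0.46 after BaCl2 and -0.61 to -0.47 after glycerol. The count of all genes passing spanned 41 to 1577 and 0 to 1645. The FAP markers were present in every library. After BaCl2 the summed level of 10 FAP markers was 40731 to 53827 CPM (counts scaled to a common library total) in SMA libraries and 60817 to 67398 CPM in WT libraries, with 5 of the 10 lower at an adjusted p under 0.05. The summed level of 10 macrophage markers was 1846 to 2695 CPM in SMA libraries and 999 to 1390 CPM in WT libraries, with all 10 higher. The sum of 7 Schwann cell markers was 29.1 to 34.2 CPM in SMA libraries, against 14.2 to 19.9 CPM in WT, with 4 higher. Satellite cell and myoblast markers summed to 26.1 to 30.4 CPM in SMA libraries, against 39.3 to 50.1 CPM in WT. Of the 5 that could be tested, only Des passed, and it was lower (log2 fold change -0.74, edgeR adjusted p = 0.00597). The other 4 had positive log2 fold changes and did not pass. After glycerol the sums of FAP, macrophage, Schwann and satellite cell markers overlapped, although 4 of the 10 macrophage markers were higher. Endothelial markers summed to 6899 to 8942 normalized counts in SMA libraries, against 10874 to 15936 in WT, with 3 of 8 lower. Pericyte and smooth muscle markers summed to 10437 to 11738 normalized counts in SMA libraries, against 13779 to 20477 in WT, with 1 of 6 lower. After BaCl2 the sums of both these lists overlapped. There all 8 endothelial markers had positive log2 fold changes, and 0 passed. Of the 6 pericyte and smooth muscle markers 5 were positive after BaCl2, with 1 passing as higher and 1 as lower. In bulk RNA of this kind, fewer cells of a type and less RNA per cell cannot be told apart.

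For Agrn, which encodes the proteoglycan agrin, the SMN-dependent event reported at the neuromuscular junction is the skipping of a pair of short exons near the 3′ end, the Z exons, whose inclusion in motor neurons makes the form that clusters acetylcholine receptors. They are shown because they set what the Agrn values below can and cannot show. Both are annotated in 1 of 4 protein-coding Agrn transcripts of GENCODE vM21, on the minus strand of chromosome 4 in build GRCm38. In the lines below the exon is in capitals, with 15 bases of the neighbouring exons in lower case, from the GENCODE transcript sequence.
Agrn exon of 24 bases, chr4:156168546-156168569: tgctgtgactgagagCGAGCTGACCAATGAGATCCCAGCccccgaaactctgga
Agrn exon of 33 bases, chr4:156167777-156167809: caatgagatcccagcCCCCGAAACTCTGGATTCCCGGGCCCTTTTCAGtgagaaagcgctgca
They make up 0.33% and 0.454% of the longest coding transcript of 7262 bases. The deposited tables give 1 value per gene, so inclusion of these exons, and splicing of any of the 8 genes, was not measured here.

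None of the 8 genes passed an adjusted p of 0.05 between SMA and WT after either injury. After BaCl2, edgeR called 0 of 8, where it called 4.29% of the 20119 genes tested. At an unadjusted p under 0.05 there were 2 of 8 (Agrn and Coro1c), against 19.3% of all genes, and DESeq2 called 0 of 8, against 11.2%. After glycerol, limma called 0 of 8, where it called 2.87% of the 14330 genes. At an unadjusted p under 0.05 there were again 2 of 8 (Agrn and Pls3), against 23.3% of all genes. In the authors' deposited table for glycerol 1 of 8 passed (Pls3), against 12.5% of the genes with an adjusted p there. In the authors' deposited table for BaCl2, 0 of the 7 with an adjusted p passed, against 13.8%. The median log2 fold change of the 8 genes was -0.02 after BaCl2 and -0.09 after glycerol, beside -0.0028 and 0.00 for all genes. Taken without sign, the median change was 0.14 after BaCl2 and 0.12 after glycerol for the 8 genes, beside 0.16 and 0.13 for all genes.

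**Figure D1:**
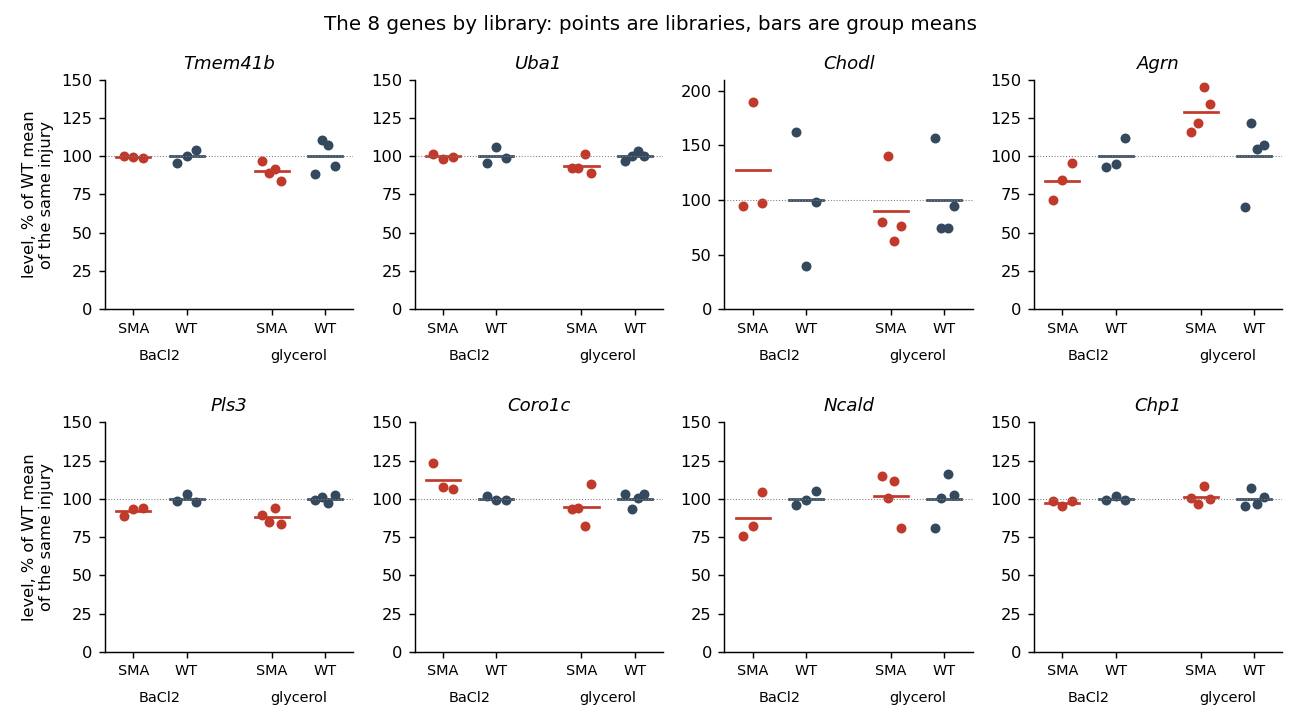
Level of each gene in every library, as a percentage of the WT mean of the same injury, with SMA left of WT (points are libraries, bars are group means). Pls3 lies below WT in every SMA library of both injuries, the SMA mean of Agrn lies below WT after BaCl2 and above WT after glycerol, and Chodl has the widest scatter within a genotype.

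Tmem41b, also called stasimon, encodes a lipid-moving membrane protein of the endoplasmic reticulum, and its minor-class intron makes it a gene spliced under SMN in fly and mouse motor circuits. After BaCl2 it stood at 41.6, 41.3 and 41.2 CPM in SMA libraries, against 39.7, 41.7 and 43.4 CPM in WT libraries. The SMA libraries all lay inside the WT range. SMA over WT gave a log2 fold change of -0.01 (SE 0.06, edgeR adjusted p = 0.962), and its 95% interval ran over SMA levels of 90.6% to 109% of WT. After glycerol it stood at 3939, 3617, 3716 and 3406 normalized counts in SMA libraries, against 3582, 4491, 4366 and 3786 normalized counts in WT libraries. The groups overlapped, with WT libraries 2 and 3 above every SMA library. This came to a log2 fold change of -0.14 (SE 0.08, limma adjusted p = 0.335), with an interval of 79.8% to 103% of WT.

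Uba1 encodes the main enzyme that activates ubiquitin. It is reported to be low in SMA tissues, and its human counterpart is mutated in an X-linked form of the disease. Per length it was the most abundant of the 8 genes. Uba1 after BaCl2 stood at 430, 416 and 421 CPM in SMA libraries, against 404, 447 and 418 CPM in WT libraries. The SMA values again fell inside the WT range (log2 fold change -0.0012, SE 0.06, edgeR adjusted p = 0.994, interval 91.2% to 109% of WT). After glycerol it stood at 26281, 26120, 28839 and 25347 normalized counts in SMA libraries, against 27490, 28372, 29337 and 28376 normalized counts in WT libraries. SMA libraries 1, 2 and 4 were below every WT library and SMA library 3 was among them. The genotypes differed by -0.09 on the log2 scale (SE 0.05, limma adjusted p = 0.291), with an interval of 86.8% to 101% of WT.

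Chodl encodes chondrolectin, a C-type lectin of the cell surface whose transcript is altered early in SMA mouse motor neurons. It was close to the floor in these cells. After BaCl2 it had 105, 280 and 137 raw counts in SMA libraries, or 1.03, 2.06 and 1.06 CPM, against 240, 50 and 141 raw counts in WT libraries, or 1.76, 0.432 and 1.06 CPM. No genotype stood apart, and the coefficient of variation was 42.5% in SMA and 61.2% in WT libraries. The log2 fold change of 0.35 (SE 0.44, edgeR adjusted p = 0.742) has an interval of 64.0% to 253% of WT. After glycerol it stood at 65.6, 115, 51.4 and 62.6 normalized counts in SMA libraries, against 128, 60.6, 61.0 and 77.6 normalized counts in WT libraries. Again 1 library of each genotype was high and the groups overlapped (log2 fold change -0.15, SE 0.32, limma adjusted p = 0.813, interval 55.0% to 148% of WT). The authors' deposited BaCl2 table gives no fold change for Chodl.

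Agrn was the gene of the 8 with the largest change by size after glycerol, and the only one with an unadjusted p under 0.05 after both injuries, in opposite directions. After BaCl2 it stood at 44.0, 52.0 and 58.9 CPM in SMA libraries, against 57.3, 58.6 and 69.0 CPM in WT libraries. SMA library 3 reached into the WT range, and the other SMA libraries were below it. On the log2 scale SMA differed from WT by -0.26 (SE 0.11, unadjusted p = 0.0388, edgeR adjusted p = 0.231), with SMA at 83.8% of the WT mean. With SMA library 1 left out it was -0.15, and with WT library 3 left out -0.17. After glycerol Agrn stood at 6553, 6912, 8226 and 7619 normalized counts in SMA libraries, against 3786, 6893, 5924 and 6089 normalized counts in WT libraries. Now the SMA libraries were the higher ones, with an overlap at WT library 2. Here the log2 fold change reached 0.40 (SE 0.17, unadjusted p = 0.0410, limma adjusted p = 0.195), with SMA at 129% of the WT mean. It was 0.22 without WT library 1, the lowest of the 8.

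Pls3 encodes plastin 3, which bundles actin filaments and whose high expression goes with milder disease in people who lack SMN1. It was the only one of the 8 genes with every SMA library below every WT library after both injuries. After BaCl2 it stood at 177, 187 and 188 CPM in SMA libraries, against 198, 207 and 196 CPM in WT libraries. The gap came to -0.12 on the log2 scale (SE 0.06, edgeR adjusted p = 0.278), with SMA at 92.0% of the WT mean. After glycerol it stood at 12064, 11432, 12652 and 11250 normalized counts in SMA libraries, against 13386, 13636, 13058 and 13771 normalized counts in WT libraries. It came to -0.19 on the log2 scale (SE 0.05, limma adjusted p = 0.0695), with SMA at 88.0% of the WT mean and an interval of 81.6% to 94.8%. With 1 glycerol library left out, Pls3 passed in 1 of 8 fits, that without SMA library 3 (log2 fold change -0.22, limma adjusted p = 0.0181), in which 1645 of all genes passed, against 411 with every library. In the other fits its adjusted p was up to 0.176. It also passed in the authors' deposited table (-0.18, adjusted p = 0.0127). The count of genes whose groups did not overlap was 3 of 8 after BaCl2 (Pls3, Chp1 and Coro1c), against 25.3% of all genes, and 1 of 8 after glycerol (Pls3), against 14.1%. The share of all genes whose groups did not overlap after both injuries was not computed. After BaCl2 the overlap of groups, here and for the other genes, was read from TMM-scaled levels only. The TMM factors were higher in every SMA library than in every WT library, and overlap without them was not computed.

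Pls3 and Uba1 lie on the X chromosome in mouse, so the sex of the animals bears on both. After BaCl2 the Y-linked gene Ddx3y was at 95.4 to 109 CPM in all 6 libraries and Xist, the RNA of the inactive X, at 0.191 CPM or less. After glycerol the Y-linked gene Kdm5d was at 46.4 to 77.4 normalized counts in all 8 libraries. Xist and Ddx3y are not listed among the glycerol genes, so no level of them was available there. After BaCl2 Pls3 split the libraries by genotype, and so did the sums of FAP, macrophage, Schwann and satellite cell markers. The FAP and satellite cell sums were lower in SMA, as Pls3 was, and the macrophage and Schwann sums were higher. After glycerol Pls3 and the endothelial and pericyte sums were lower in every SMA library than in every WT library. All these splits run along the genotype and cannot be told apart from it. The part of cell make-up in the Pls3 values was not tested. Among the glycerol libraries SMA library 3 had the highest Pls3 of the SMA libraries. It also had the lowest macrophage marker sum among them, 103080 normalized counts against 187131 to 251171 in the other SMA libraries. Its Schwann marker sum was the highest of all glycerol libraries, 3646 normalized counts. The WT libraries went the other way, as WT library 4 had both their highest macrophage sum, 116661 normalized counts, and their highest Pls3, 13771.

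Coro1c encodes coronin 1C, an actin-binding protein that associates with plastin 3 and was reported to rescue axons of SMA model fish. Coro1c after BaCl2 stood at 101, 88.4 and 87.2 CPM in SMA libraries, against 83.5, 81.7 and 81.2 CPM in WT libraries. Every SMA library was above every WT library, SMA library 1 by the most. The log2 fold change was 0.17 (SE 0.07, unadjusted p = 0.0329, edgeR adjusted p = 0.211), and 0.10 without SMA library 1. After glycerol it stood at 7145, 7212, 6315 and 8382 normalized counts in SMA libraries, against 7903, 7134, 7688 and 7893 normalized counts in WT libraries. The SMA libraries spread to both sides of WT (log2 fold change -0.08, SE 0.08, limma adjusted p = 0.586).

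Ncald encodes neurocalcin delta, a calcium sensor that slows endocytosis in neurons, and its reduction eases SMA in model animals. After BaCl2 it stood at 11.8, 12.9 and 16.3 CPM in SMA libraries, against 14.97, 15.5 and 16.4 CPM in WT libraries. SMA libraries 1 and 2 were below WT and SMA library 3 was within it. The log2 fold change was -0.19 (SE 0.12, edgeR adjusted p = 0.409), and 0.06 without SMA libraries 1 and 2, which leaves 1 SMA library. After glycerol it ranged from 988 to 1403 normalized counts in SMA libraries and from 991 to 1423 normalized counts in WT libraries, nearly the same span (log2 fold change 0.03, SE 0.14, limma adjusted p = 0.938). Chp1 encodes a calcium-binding relative of the calcineurin regulatory subunit, which binds plastin 3, and lowering it is reported to ease SMA in mice. After BaCl2 it stood at 132.5, 128.8 and 133.1 CPM in SMA libraries, against 133.6, 137.4 and 133.6 CPM in WT libraries. The SMA libraries were all below WT, by under 1 CPM at the nearest. The log2 fold change was -0.04 (SE 0.05, edgeR adjusted p = 0.777, interval 89.9% to 106% of WT). After glycerol it ranged from 9061 to 10160 normalized counts in SMA libraries and from 8882 to 10018 normalized counts in WT libraries (0.02, SE 0.05, limma adjusted p = 0.865, interval 93.1% to 110% of WT).

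Whether SMA and WT differed by another amount after glycerol than after BaCl2 was tested on the difference of the log2 fold changes, glycerol minus BaCl2, adjusted over 13960 genes. None of the 8 genes passed, where 3.8% of all genes did, and at an unadjusted p under 0.05 there were 2 of 8 (Agrn and Coro1c), against 21.5%. Agrn had the largest difference of the 8 by size, 0.65 (SE 0.20, interval 0.23 to 1.08, unadjusted p = 0.00475, adjusted p = 0.0736). It passed in 2 of the 14 fits with 1 library left out, without SMA library 3 of BaCl2 (0.75, adjusted p = 0.0316) and without WT library 2 of glycerol (0.76, adjusted p = 0.0418). In these fits 1062 and 806 of all genes passed, against 530 with every library. Over the 14 fits the adjusted p of Agrn ranged from 0.0316 to 0.150. Coro1c differed by -0.25 (SE 0.11, unadjusted p = 0.0292, adjusted p = 0.176). For Pls3 the difference was -0.07 (interval -0.22 to 0.09, adjusted p = 0.657), so its effects after the injuries were not told apart. The labels give the injury as the batch, and the tables were normalized separately, and these cannot be told apart in any of the differences.

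**Figure D2:**
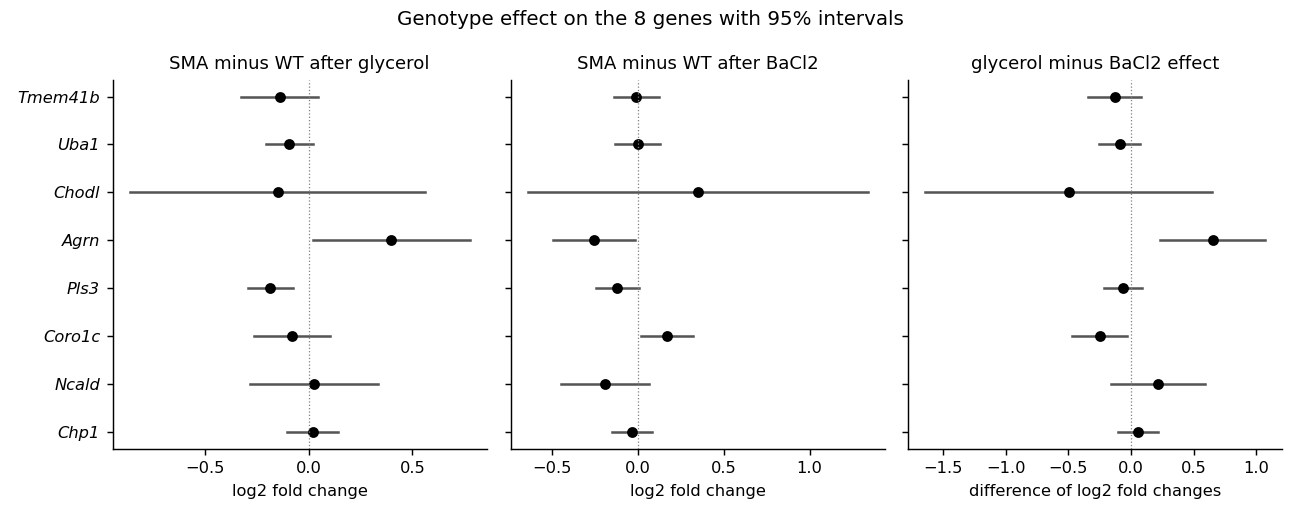
Log2 fold change of SMA over WT after glycerol (left) and BaCl2 (middle), and the glycerol minus BaCl2 difference (right), for the 8 genes (points with 95% intervals, x axes on the log2 scale and different per panel). Most intervals include 0, and Agrn lies at 0.40 after glycerol, at -0.26 after BaCl2 and at 0.65 for the difference.

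Levels of different genes were set beside each other only per kilobase of exon, with exon lengths from GENCODE vM21. After BaCl2 Uba1 led with 87.7 CPM per kb over the 6 libraries, followed by Pls3 with 45.3, Chp1 with 38.1, Coro1c with 9.03, Tmem41b with 7.07, Agrn with 6.10, Ncald with 1.71 and Chodl with 0.225 CPM per kb. Of the neighbours in this order, only Tmem41b and Agrn overlapped between libraries. Uba1 was above 97.6% of the tested genes with a length, Ncald above 48.5% and Chodl above 23.8%. After glycerol the order was the same except that Agrn (700 normalized counts per kb) came before Tmem41b (658 normalized counts per kb), and the ranges of Pls3 and Chp1, of Coro1c and Agrn, and of Agrn and Tmem41b overlapped. Within a genotype, the coefficient of variation stayed at 17.2% or less for the 7 genes other than Chodl, except for Agrn in WT libraries after glycerol (23.4%).

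**Figure D3:**
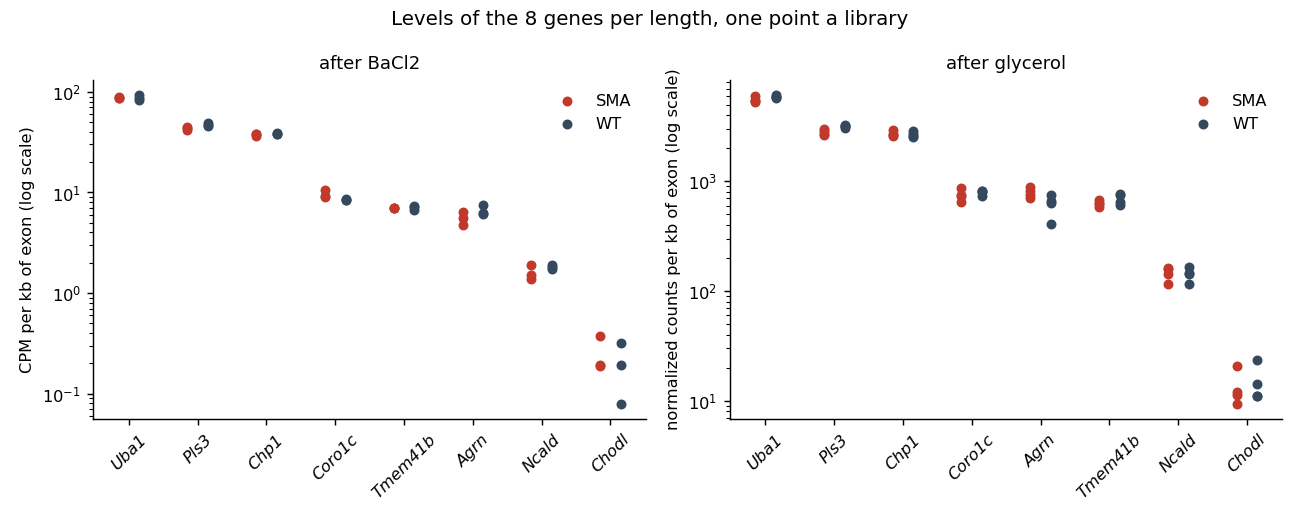
Level per kilobase of exon of the 8 genes in each library on a log scale, in CPM per kb after BaCl2 (left) and normalized counts per kb after glycerol (right), SMA left of WT. Uba1, Pls3 and Chp1 form the high end, Ncald and Chodl the low end, and the genotypes lie close together for every gene beside the spread between genes.

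Another 86 genes of the same biology, 27 relatives of the 8 genes and 59 partners or other genes studied beside SMN, were followed in the same fits. After BaCl2, 83 could be tested and 2 rose, against 2.73% of all genes that rose, while 0 fell, against 1.56%. The 81 others did not pass, and the median log2 fold change was 0.01. After glycerol limma passed 0 of 82, against the 2.87% above, with a median of -0.02. Those that rose after BaCl2 were Lcp1, the plastin of white blood cells (0.99, SE 0.16, edgeR adjusted p = 0.0123), and Coro1a, the coronin of white blood cells (0.95, SE 0.17, edgeR adjusted p = 0.0156). Lcp1 averaged 199 ± 47.0 CPM in SMA libraries, against 100.3 ± 16.6 CPM in WT (SD, n = 3 each). Coro1a averaged 42.8 ± 9.62 CPM in SMA libraries, against 22.1 ± 4.09 CPM in WT (SD, n = 3 each). Both are also expressed by macrophages, whose 10 markers all rose in the same libraries, and the part of these cells was not tested. Both missed the threshold when SMA 2, WT 2 or WT 3 was left out (edgeR adjusted p up to 0.0781 for Lcp1 and 0.0829 for Coro1a). With 1 library left out the log2 fold change spanned 0.81 to 1.15 for Lcp1 and 0.80 to 1.12 for Coro1a. In these fits 41 to 1577 of all genes passed, against 863 with every library. Without both SMA libraries 1 and 2 it was 0.62 for Lcp1 and 0.56 for Coro1a, with 1 SMA library left. After glycerol Lcp1 stood at 0.65 (limma adjusted p = 0.146) and Coro1a at 0.73 (limma adjusted p = 0.0916).

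The other relatives did not pass after either injury, and the values that follow are log2 fold changes. The largest of all relatives tested after glycerol was Coro2a, at 0.93 (limma adjusted p = 0.0647), with 0.64 after BaCl2 (edgeR adjusted p = 0.0567). Uba7 stood at 0.26 after glycerol (limma adjusted p = 0.244) and -0.49 after BaCl2 (edgeR adjusted p = 0.0542). Vmp1, which works beside Tmem41b in autophagy, stood at -0.03 after glycerol and -0.12 after BaCl2, and Tmem41a at -0.17 after glycerol and -0.10 after BaCl2. Uba6, the other enzyme able to activate ubiquitin, stood at -0.02 after glycerol and 0.04 after BaCl2. Coro1b stood at 0.08 after glycerol and -0.06 after BaCl2. Hpcal1, a calcium sensor of the same family as Ncald, stood at 0.25 after glycerol and 0.13 after BaCl2. Ppp3r1, the calcineurin regulatory subunit, stood at -0.04 after glycerol and -0.08 after BaCl2. Layn, a relative of Chodl, stood at -0.23 after glycerol (limma adjusted p = 0.0813) and at -0.07 after BaCl2. Every SMA library was below every WT library for Layn after glycerol, where the groups of 14.1% of all genes did not overlap. After BaCl2, where that share was 25.3%, every SMA library was below WT for Coro1b and above WT for Hpcal1. Pls1 was too low to test, at 0.136 CPM or less in every BaCl2 library. Lrp4, the agrin receptor, stood at 0.09 after glycerol and 0.10 after BaCl2, and 0 of the 5 genes of the agrin receptor complex passed. Actin control (0 of 10), endocytosis (0 of 11), calcineurin and Chp1 targets (0 of 4), SMN mRNA binding and transport (0 of 9), SMN stability and R loops (0 of 8) and other lower motor neuron disease genes (0 of 11) also had no gene that passed after either injury.

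**Figure D4:**
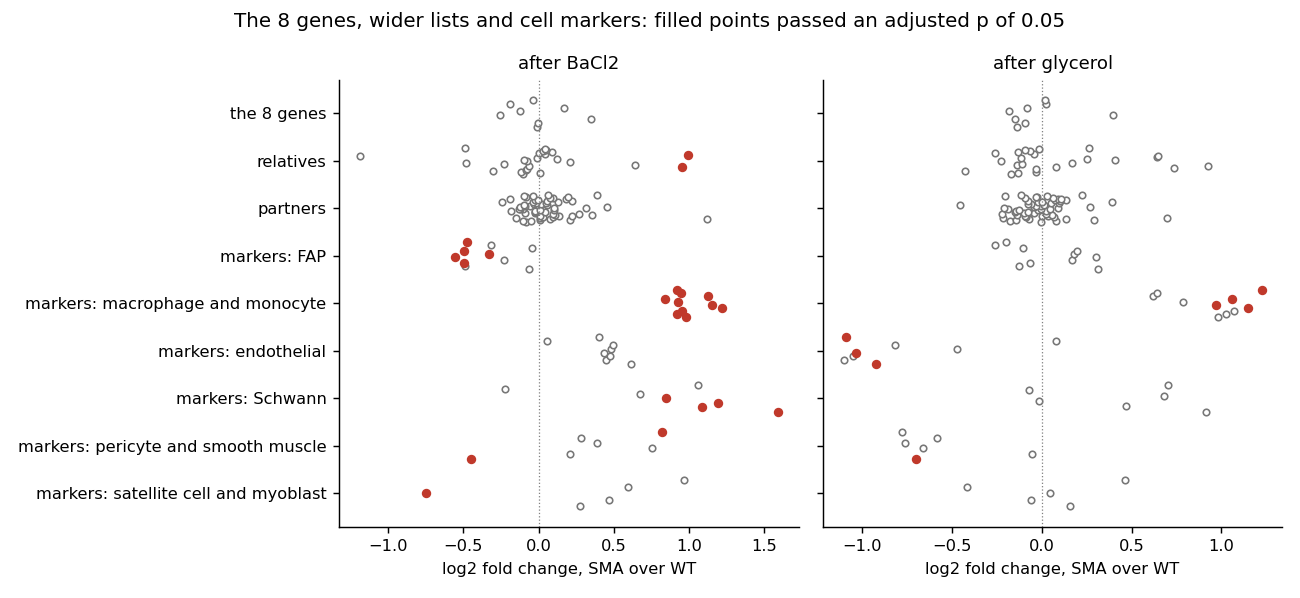
Log2 fold change of SMA over WT for the 8 genes, their relatives and partners, and markers of 6 cell types, after BaCl2 (left) and glycerol (right); each point is a gene and filled points passed an adjusted p of 0.05. Most of the 8 genes and of their partners lie near 0, and the filled points among the relatives are Lcp1 and Coro1a after BaCl2.

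Across the 14 libraries, each gene's log2(value + 1) values were centred on their mean within each table and compared over 13802 named genes. These correlations describe the libraries, which share genotypes, injuries and cell make-up. Agrn was followed most closely by Pml (Pearson r 0.971, Spearman rho 0.938) and Parp10 (r 0.964, rho 0.938). Pls3 was most like Emp2 (r 0.955, rho 0.952) and Filip1 (r 0.926, rho 0.912). Coro1c was most like the glycolysis genes Pkm (r 0.952, rho 0.916) and Pgam1 (r 0.932, rho 0.947). Uba1 was most like Rbbp7 (r 0.924, rho 0.921) and Tubb4b (r 0.902, rho 0.886), and Tmem41b like Tmx3 (r 0.910, rho 0.776) and Tspan12 (r 0.904, rho 0.886). For Chp1 the nearest were Aida (r 0.930, rho 0.930) and Tshz1 (r 0.928, rho 0.908), for Ncald Cul4b (r 0.873, rho 0.846) and Abtb3 (r 0.869, rho 0.829), and for Chodl Dock5 (r 0.852, rho 0.824) and Tmem202 (r 0.829, rho 0.701). Among the 8 genes themselves the pairs that went together most were Pls3 with Uba1 (r 0.665, rho 0.679) and Agrn with Chp1 (r 0.607, rho 0.499), and those that went most against each other were Chodl with Chp1 (r -0.722, rho -0.600) and Coro1c with Ncald (r -0.708, rho -0.600).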

How the data were processed

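RNA-seq of 14 FAP libraries was used. For BaCl2 the authors deposited raw whole-number counts. For glycerol they deposited a signal already normalized between libraries (normalized counts), with 83 values at 0. Both tables also hold log2 fold changes and p-values that the authors computed, per the file headers. Per the submitters' processing notes DESeq2, featureCounts, fastp and Salmon were used, and no role, version or genome build is known from the sources used here. Libraries were poly(A)-selected and directional per the labels' protocols, and whether counting used the strand is not stated. The BaCl2 table repeats the names of its libraries over 6 columns of z-scores, which were not used.

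BaCl2 counts were TMM-scaled, low genes removed (filterByExpr) and SMA compared with WT in edgeR 4.0.16 (quasi-likelihood F test). Glycerol values were fitted as log2(value + 1) with limma 3.58.1 with a mean-variance trend, in R 4.3.3. The difference between injuries used the 2 fits' standard errors and Satterthwaite degrees of freedom. DESeq2 1.42.0 was an alternative. All p-values were adjusted over all genes tested (Benjamini-Hochberg). The steps were checked on simulated data with known changes. These were larger in size than any SMA over WT change given above for the 8 genes with every library. The check therefore does not show how well changes as small as theirs would be found. The genes and lists were chosen with earlier results of these data known. All 8 genes were named, with passing genes of the wider list and 11 fixed relatives, and the 2 genes most like each of the 8. Coro2a was named besides, after its values were seen. GENCODE vM21 matched 52029 of 56953 and 14287 of 14330 gene identifiers and served for exon lengths. Exons of Coro1c and Ncald overlap 3 annotated genes, which had 0 counts after BaCl2.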

Additional observations from a re-analysis of the deposited data

Results flagged for a closer look

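Among the partners and relatives, 4 genes had a genotype effect that differed between the injuries by the test of the difference itself (t test on the 2 fits, adjusted over 13960 genes). They are 4 of 82 tested, where 3.8% of all genes passed. Uba7, an enzyme that activates the ubiquitin-like protein of the interferon response, had a difference of 0.75 (SE 0.17, adjusted p = 0.0246), with 0.26 after glycerol and -0.49 after BaCl2. Dnm1, a dynamin of endocytosis, had a difference of 0.63 (SE 0.13, adjusted p = 0.0189), with 0.39 after glycerol and -0.24 after BaCl2. Zpr1, a zinc finger protein that binds SMN, had a difference of -0.49 (SE 0.12, adjusted p = 0.0335), with -0.22 after glycerol and 0.27 after BaCl2. Eea1, an early endosome tether, had a difference of -0.30 (SE 0.08, adjusted p = 0.0452), with -0.08 after glycerol and 0.22 after BaCl2. None of the 4 passed within either injury alone by edgeR or limma. With each of the 14 libraries left out in turn, Dnm1 kept an adjusted p of 0.0478 or less, while Uba7 ended above 0.05 in 5, Zpr1 in 7 and Eea1 in 10 of the 14. Without both SMA libraries 1 and 2 of BaCl2, an alternative chosen after seeing the data that leaves 1 SMA library there and takes the spread from WT, the differences were 0.47 for Uba7, 0.52 for Dnm1, -0.45 for Zpr1 and -0.20 for Eea1, and none passed (adjusted p 0.0799 to 0.353).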

How the results depend on the processing

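The 8 genes changed side of the threshold in 5 of 350 gene values computed under alternatives, each towards a pass. With 1 library left out, 0 genes passed after BaCl2, 0 to 1 after glycerol and 0 to 1 for the difference. Agrn made the difference pass under a standard normal reference (count 1, where 10.5% of all genes passed) and the replicate block (count 1, adjusted p = 0.0228, where 6.22% passed). The deviations of same-numbered libraries correlated at -0.126 to 0.087, beside -0.134 to 0.105 for differently numbered libraries. Same-numbered libraries were thus no more alike than others by this measure. Whether the numbers pair libraries stays unknown, because no libraries known to be paired were available for comparison. Counts over all genes after BaCl2 were 1700 with DESeq2, 1867 without the filter, 108 without both SMA libraries 1 and 2 (1 SMA library left) and 41 to 1577 with 1 library left out, beside 863. After glycerol they were 201 among genes above the median mean, 2 without the variance trend, 257 with the replicate block and 0 to 1645 with 1 library left out, beside 411. For the difference they were 1470 with the standard normal, 868 with the replicate block, 72 without SMA libraries 1 and 2 of BaCl2 (chosen after seeing the data) and 173 to 1062 with 1 library left out, beside 530. The cause of these moves was not tested.

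Signs turned only for values near 0 or for Chodl and Ncald. After BaCl2, Uba1 was at 0.00 with DESeq2 (0.0037), with its size factors (0.0044) and without the filter (0.0044), Chodl at -0.0421 and Ncald at 0.0604 without SMA libraries 1 and 2, and the Ncald difference then at -0.0354. With 1 library left out the log2 fold changes after BaCl2 spanned -0.0431 to 0.021 for Tmem41b, -0.0352 to 0.0394 for Uba1 and -0.0572 to 0.8808 for Chodl. After glycerol they spanned -0.3836 to 0.0882 for Chodl, -0.0146 to 0.0529 for Chp1, -0.0719 to 0.1317 for Ncald, -0.0522 to 0.0153 for Uba6 and -0.05 to 0.0076 for Vmp1. Smn1 fell short of the threshold in 3 of 6 BaCl2 and 7 of 8 glycerol fits with 1 library left out. Its log2 fold change in these fits spanned -0.5922 to -0.4641 after BaCl2 and -0.6101 to -0.47 after glycerol. Chodl, with the fewest counts of the 8 genes, had 50 to 280 counts a library after BaCl2, a counting error of 5.98% to 14.1%, beside coefficients of variation of 42.5% in SMA and 61.2% in WT libraries.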
